A study of Homo sapiens with 4 samples.

Results

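Genes of cholesterol and fatty acid synthesis, together with genes that sense, move, store or export sterols, were examined in OVSAYO, a human cell line of ovarian clear cell carcinoma (CCC). The set lists 39 genes by symbol, and a gene was measured where the RefSeq accession of an array spot led to its symbol. In this way 38 of the 39 genes had a probe, out of 17721 genes with a probe on the array, and ACLY had none. RNA of 4 conditions was hybridised in single colour to 4 Agilent whole human genome arrays on 1 slide, 1 array per condition. Cells received a non-specific control siRNA (NS-si) or a pool of siRNAs against Sp1 (Sp1-si), with lipofectamine 2000 in all cases. They were cultured for 40 h and then, after a change of medium, kept for 4 h with or without 0.5 mM CoCl2, a hypoxia-mimicking agent (NS-si → CoCl2 and Sp1-si → CoCl2). The time before CoCl2 is that of the sample labels, and a legend of the study gives a shorter one. All conditions therefore share the cell line, the transfection and the medium change, CoCl2 stands for low oxygen without being it, and a single siRNA pool was used against Sp1.

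Sterol synthesis is controlled through sterol regulatory element-binding proteins (SREBPs), membrane-bound transcription factors that SCAP escorts to the Golgi for cleavage when cell sterols are low and that the INSIG proteins hold back in the endoplasmic reticulum when sterols are plentiful. SREBF2 mainly drives the genes of cholesterol synthesis, SREBF1 those of fatty acid synthesis, and oxysterols acting through the liver X receptors (LXRs) turn on cholesterol export. Sp1 binds GC boxes, NF-Y binds CCAAT boxes, and both are known partners of SREBPs on promoters of this pathway, whereas HIFs, which CoCl2 stabilises, bind a short core in hypoxia response elements.

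The promoters of 6 genes that were at least 2-fold apart in an array pair are shown as examples that carry letters these factors are known to recognise. INSIG1 and NR1H3 were past 2-fold too and have a promoter window, but are not shown. The window of INSIG1 holds matches to the GC box, the NF-Y box and the HIF core, and that of NR1H3 holds no match to any motif searched. Each line is the 250 bases before the start of transcription in the RefSeq annotation of GRCh38.p14, 5′ to 3′ on the strand of the gene. Where a gene has several starts, the start farthest 5′ was taken, here and in the counts below. Which start these cells use was not measured. Capitals mark the GC box, written GGGCGG, the box of NF-Y, written CCAAT, and the HIF core, which is either ACGTG or, in its other form, GCGTG. Both strands were searched, so that capitals can also show the complement of a motif read backwards, and neighbouring matches may run together or overlap.
INSIG2, chr2:118088221-118088470, plus strand: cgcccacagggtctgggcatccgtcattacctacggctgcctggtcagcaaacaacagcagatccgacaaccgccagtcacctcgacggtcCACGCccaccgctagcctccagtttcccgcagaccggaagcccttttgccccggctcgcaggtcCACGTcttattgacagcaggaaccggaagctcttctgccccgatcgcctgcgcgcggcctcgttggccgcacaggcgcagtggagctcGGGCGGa
STARD4, chr5:111512536-111512785, minus strand: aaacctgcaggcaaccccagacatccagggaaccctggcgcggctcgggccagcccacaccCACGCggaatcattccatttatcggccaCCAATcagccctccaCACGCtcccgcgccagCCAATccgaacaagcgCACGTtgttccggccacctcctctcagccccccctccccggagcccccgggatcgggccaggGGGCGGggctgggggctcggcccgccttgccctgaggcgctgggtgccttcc
ABCA1, chr9:104928156-104928405, minus strand: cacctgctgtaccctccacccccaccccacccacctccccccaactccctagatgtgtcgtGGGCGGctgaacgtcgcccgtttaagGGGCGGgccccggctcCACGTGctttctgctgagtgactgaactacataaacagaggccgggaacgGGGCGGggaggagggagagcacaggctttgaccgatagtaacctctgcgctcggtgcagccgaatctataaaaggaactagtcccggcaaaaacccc
EBP, chrX:48521558-48521807, plus strand: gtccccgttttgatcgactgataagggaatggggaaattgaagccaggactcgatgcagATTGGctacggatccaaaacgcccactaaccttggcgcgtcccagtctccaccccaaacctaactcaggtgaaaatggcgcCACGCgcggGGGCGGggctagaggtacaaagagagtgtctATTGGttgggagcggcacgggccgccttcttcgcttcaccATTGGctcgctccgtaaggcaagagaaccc
SCD, chr10:100346983-100347232, plus strand: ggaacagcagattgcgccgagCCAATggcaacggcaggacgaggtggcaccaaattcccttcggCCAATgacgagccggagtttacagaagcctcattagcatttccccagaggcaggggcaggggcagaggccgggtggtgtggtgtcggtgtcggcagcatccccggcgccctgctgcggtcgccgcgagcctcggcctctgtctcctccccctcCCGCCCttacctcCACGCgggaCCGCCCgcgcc
SOAT1, chr1:179293547-179293796, plus strand: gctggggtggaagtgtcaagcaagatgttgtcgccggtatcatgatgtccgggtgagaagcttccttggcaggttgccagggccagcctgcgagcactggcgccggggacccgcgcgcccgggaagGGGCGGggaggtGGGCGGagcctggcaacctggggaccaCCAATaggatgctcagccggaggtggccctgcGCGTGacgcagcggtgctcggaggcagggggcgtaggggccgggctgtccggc

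Of the 39 genes, 34 had a promoter window of 300 bases (250 before and 50 after the start), and ACAT2, FDFT1, SQLE, FASN and ABCG1 had none. A GC box lay in the window of 28 of the 34 genes (82.4%), against 44.5% of all 27305 promoters of that length. That background holds every gene with such a window, whether or not it was measured on the array. Promoters of genes with signal in these cells were not compared alone, so whether these shares are particular to the set was not tested. A CCAAT box was found in 19 (55.9%) against 35.7%, the HIF core ACGTG in 11 (32.4%) against 21.6%, and the HIF core GCGTG in 22 (64.7%) against 36.4%. The strict form TCACNCCAC of the sterol regulatory element was found in 1 window, that of SREBF2 (2.94%), against 1.13% of all promoters. Other forms of the element and bases outside the window were not searched, so the count does not show which genes lack the element. Among the genes at least 2-fold lower in a pair of Sp1-si and NS-si arrays, 4 of the 5 with a window held a GC box (80%), and so did 24 of the other 29 (82.8%). NR1H3, of these 5, had none in the window taken. ACGTG was found for all of INSIG2, STARD4 and ABCA1, the 3 genes at least 2-fold higher in a CoCl2 pair, which is a description of 3 windows. In the INSIG2 promoter above, this core began 95 bases before the start. The ABCA1 promoter holds it on both strands as an overlapping pair beginning 147 and 146 bases before the start. Both matches are the same stretch, CACGTG, which reads alike on either strand and so is always matched on each. A match of letters is not a measured binding site.

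The targeted gene was low on both Sp1-si arrays. SP1, measured by a probe with 10 spots per array, had scaled signals of 484 (NS-si), 35.6 (Sp1-si), 439 (NS-si → CoCl2) and 30.1 (Sp1-si → CoCl2), which is 13.6-fold lower without and 14.6-fold lower with CoCl2. All 10 markers of CCC and epithelium were well above background on the 4 arrays, with a summed scaled signal between 336600 and 392400. Of other cell types, 2 of 3 leukocyte markers (CD3E and CD68) and 1 of 2 endothelial markers (VWF) were so. Their scaled signals were 193.7 to 279.8 for CD3E, 225.5 to 803.5 for CD68 and 35.1 to 47.4 for VWF, with CD68 lower on both Sp1-si arrays. PTPRC and PECAM1 were well above background on 0 arrays, and neither of the 2 adipocyte markers was so on all 4. The 3 measured fibroblast markers were above it everywhere and summed to scaled signals of 340.2 to 763.6, lower on both Sp1-si arrays. Some CCC and epithelial markers moved with Sp1 silencing, such as GPX3, with 1740 for NS-si and 9052 for Sp1-si cells, and CDH1, with 34470 and 11760, and their part in the results below was not tested. Spots well above background numbered 33081 to 34542 per array.

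A scaled signal here is the processed intensity of a probe divided by the 75th percentile of its array, times 1000. Ratios between arrays are given on the log2 scale of this signal, a gene with several probes is represented by the one with the highest mean, and a gene is called higher or lower at 2-fold, that is a log2 ratio of 1. Each condition has 1 array, so there are no replicates and no test. The error given with a ratio comes from repeated spots on the same array and is taken for single-spot probes from 10-spot probes of like signal. It gave a median SD of 0.06 to 0.07 on the log2 scale for the ratio of a pair of arrays, and it leaves out the differences between cultures, labellings and arrays. A lower signal can mean fewer cells with the transcript or less transcript per cell, and these cannot be told apart in RNA of whole cultures. Of the 38 genes, 37 were well above background on all 4 arrays. ACACB, an acetyl-CoA carboxylase isoform of the mitochondrial surface, was so in Sp1-si → CoCl2 cells alone. Its scaled signal was 12.4 there, 7.2 for Sp1-si and 3.6 for NS-si → CoCl2 cells. The latter signals were not well above background, so the sizes of these ratios are uncertain. On the log2 scale they were 0.78 (error 0.47) against Sp1-si and 1.79 (error 0.50) against NS-si → CoCl2 cells. The former is less than 2 such errors from 0.

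CoCl2 was accompanied by higher signals for most genes of the set. In NS-si cells 31 of the 37 genes (83.8%) had a log2 ratio above 0, against 50.4% of all 14620 genes tested, and the median was 0.24, against 0.00 for all genes. Of the 37, 3 (8.11%) were at least 2-fold higher with CoCl2, INSIG2, STARD4 and ABCA1, where the share was 3.8% over all genes, and none was at least 2-fold lower, where it was 3.22%. Sp1-si cells had 28 of 37 (75.7%) above 0 against 49.8% of 14453 genes, with a median of 0.30. There 2 genes (5.41%), INSIG2 and ABCA1, were at least 2-fold higher against 3.45%, and none was lower against 3.72%. These CoCl2 pairs share no array. Between them 34 of the 37 genes lay on the same side of 0, 28 above and 6 below, and over all genes 10346 of 14283 did. The log2 ratios of the 37 genes in NS-si and Sp1-si cells had a Spearman correlation of 0.79 across genes, against 0.62 over all genes, where genes are not independent and all 4 arrays come from 1 slide. Without scaling between arrays the median in NS-si cells was 0.02 with 1 gene past 2-fold, and that in Sp1-si cells 0.53 with 5.

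A threshold of 1.5-fold took in more of the pathway. In NS-si cells HMGCS1, MVD, FASN and NPC1 joined the 3 genes above, 7 in all (18.9%), where 10.6% of all genes were that much higher, and none was that much lower, where 9.88% were. In Sp1-si cells 9 genes (24.3%) were higher against 10.2%, these 7 together with MSMO1 and INSIG1, and 1 gene (2.70%), HSD17B7, was lower against 11.1%. The cumulative curves show the whole distribution.

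**Figure D1:**
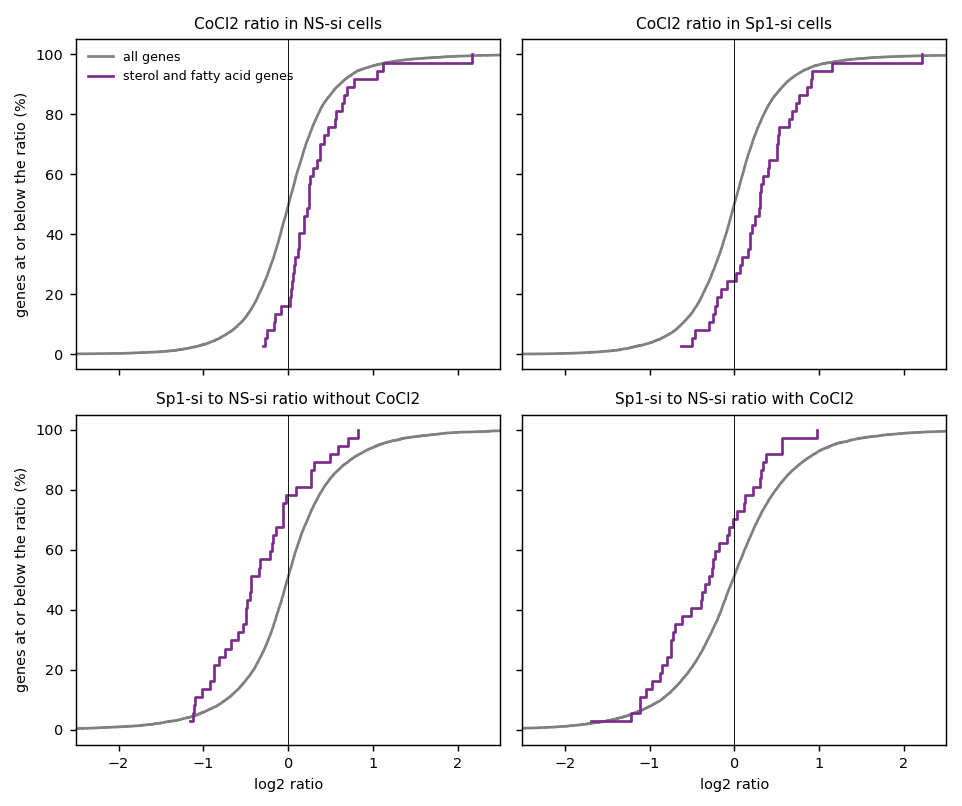
Cumulative share of genes by log2 ratio in the 4 pairs of arrays. The x axis is the log2 ratio named in each panel title, the y axis the percentage of genes at or below it, the grey line all genes tested and the purple line the 37 sterol and fatty acid genes. The purple line lies to the right of the grey line in most of both CoCl2 panels (medians 0.24 and 0.30) and to its left in most of both Sp1 panels (medians -0.43 and -0.30).

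Sp1 silencing went with lower signals. Without CoCl2, 29 of the 37 genes (78.4%) had a Sp1-si to NS-si ratio below 0, against 51.1% of 14616 genes, with a median of -0.43. Of these, 5 (13.5%) were at least 2-fold lower, ACAT2, EBP, INSIG1, SCD and SOAT1, against 5.81% of all genes, and none was at least 2-fold higher against 5.87%. With CoCl2, 26 genes (70.3%) lay below 0 against 51.2% of 14398, with a median of -0.30. Again 5 (13.5%) were at least 2-fold lower, with NR1H3 in place of INSIG1, against 7.72%, and none was higher against 7.06%. ACAT2, EBP, SCD and SOAT1 were past 2-fold in both pairs, which share no array, and 34 of 37 genes lay on the same side of 0 in both, against 11153 of 14283 genes. At 1.5-fold, 12 genes (32.4%) were lower without CoCl2 against 13.6% of all genes and 14 (37.8%) with CoCl2 against 17.7%. Higher by as much were TM7SF2, STARD4 and FASN without CoCl2 (8.11%) against 13.5%, and FASN alone with CoCl2 (2.70%) against 16.6%. Without scaling between arrays the median with CoCl2 turned to 0.10 and 1 gene was 2-fold lower in place of 5, and 3 were with scaling to the array median. With the mean over the probes of a gene, 3 genes in place of 5 were 2-fold lower without CoCl2.

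The CoCl2 responses of NS-si and Sp1-si cells were then set against each other. Subtracting the log2 CoCl2 ratio of NS-si cells from that of Sp1-si cells gave a median of 0.02 over the 37 genes, and the differences ran from -0.58 for SOAT1 to 0.44 for ELOVL6. By the representative probes, no gene of the set reached a 2-fold difference, where 0.973% of 14283 genes did upward and 2.88% downward. Neither did any of these probes reach 1.5-fold, where 5.43% and 8.13% did, but the other probe of INSIG2 stood at 0.67 and that of ABCA1 at -0.70, past that threshold. Among the 18 genes with several probes, the probes gave this difference the same sign for 9, and they lay up to 0.89 apart. The spread of this difference is wider, with a median between-spot SD of 0.09, and 17 of the 37 differences were over 2 such SDs.

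**Figure D2:**
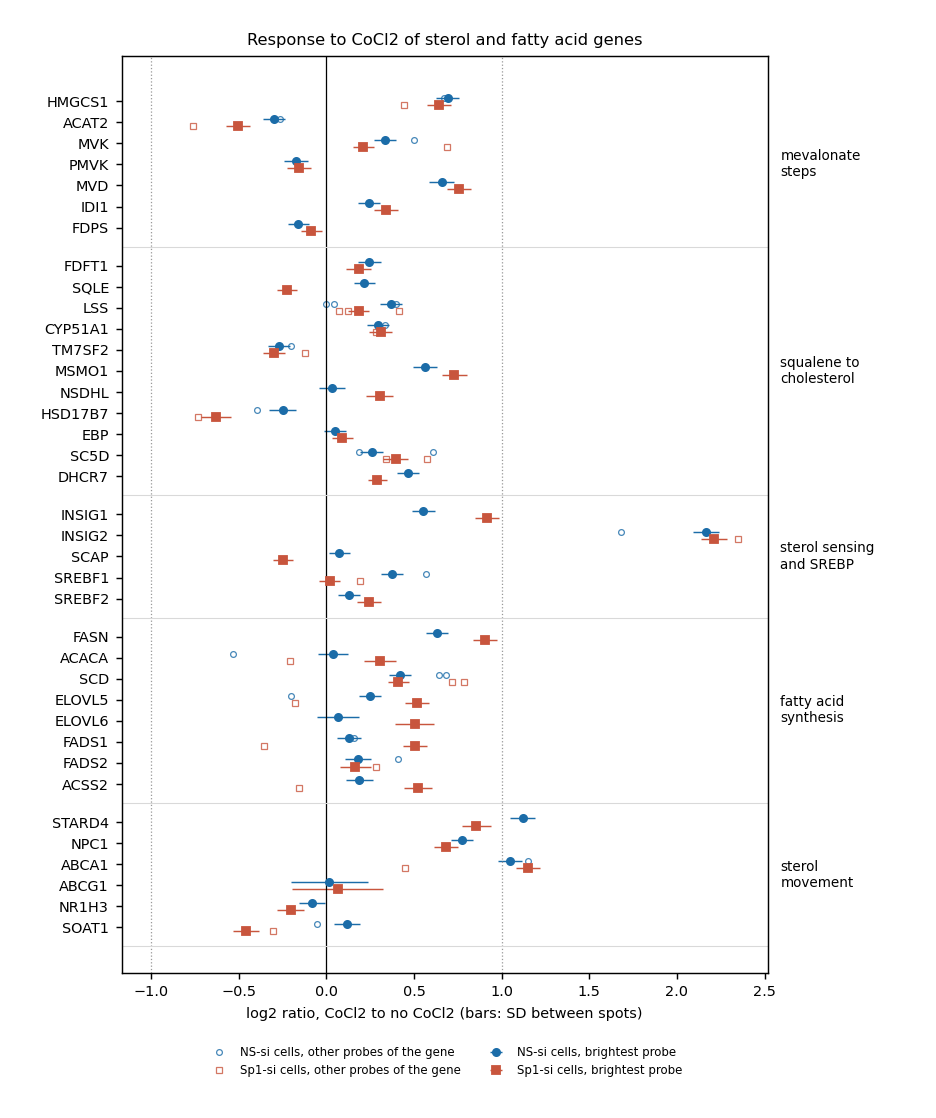
Log2 ratio of CoCl2-treated to untreated cells for 37 sterol and fatty acid genes, grouped by role. Filled circles are NS-si cells and filled squares Sp1-si cells for the representative probe, with bars of 1 between-spot SD, open marks are other probes of the same gene, and dotted lines mark 2-fold. INSIG2 stands at 2.17 and 2.21, and most other genes lie between 0 and 1.

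The first steps of the pathway turn acetyl-CoA into isoprenoid units. MVD, the decarboxylase that ends the mevalonate branch, had scaled signals of 1701 (NS-si), 2050 (Sp1-si), 2682 (NS-si → CoCl2) and 3466 (Sp1-si → CoCl2). Both CoCl2 arrays were above both untreated arrays, by log2 ratios of 0.66 ± 0.07 for NS-si and 0.76 ± 0.07 for Sp1-si cells (between-spot SD here and below). HMGCS1, the HMG-CoA synthase that commits acetyl units to the branch, had 4505, 2819, 7275 and 4403 in the same order of conditions. It was higher with CoCl2 by 0.69 and 0.64 and lower with Sp1-si by 1.60-fold and 1.65-fold, and its other probe gave 0.67 and 0.44 for CoCl2. ACAT2, the thiolase that joins acetyl-CoA units in the cytosol, had 8314, 4117, 6763 and 2904. Both Sp1-si arrays were below both NS-si arrays, by log2 ratios of -1.01 ± 0.07 without and -1.22 ± 0.06 with CoCl2, and the ratio of the other ACAT2 probe was -1.78 and -2.27. ACAT2 was also the gene of this group with the most negative CoCl2 ratios, -0.30 and -0.50. MVK, PMVK, IDI1 and FDPS, which phosphorylate mevalonate, isomerise the isoprenoid unit and condense it, had log2 ratios between -0.30 and 0.34 in every pair by their representative probes. The other MVK probe gave CoCl2 ratios of 0.50 and 0.69 and Sp1-si ratios of -0.10 without and 0.09 with CoCl2. Mevalonate genes as a group had a median Sp1-si to NS-si ratio of -0.07 without and 0.03 with CoCl2.

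From squalene to cholesterol, the 11 genes had a median CoCl2 ratio of 0.24 for NS-si and 0.18 for Sp1-si cells, and none reached 2-fold. MSMO1, a methyl sterol oxidase, showed the highest, 0.56 and 0.73. EBP, the isomerase that moves the double bond of the sterol ring, had scaled signals of 19630 (NS-si), 8815 (Sp1-si), 20320 (NS-si → CoCl2) and 9383 (Sp1-si → CoCl2). These values split by siRNA and hardly by CoCl2, with Sp1-si lower by 2.23-fold and 2.17-fold and CoCl2 ratios of 0.05 and 0.09. Lower with Sp1-si at 1.5-fold in both pairs were also CYP51A1, the lanosterol demethylase, at -0.81 and -0.80, and SC5D, a desaturase of the sterol ring, at -0.88 and -0.74. The 2 CYP51A1 probes agreed within 0.05, but 1 of the 3 SC5D probes, with scaled signals of 126 to 258, went the other way at 0.69 and 0.42. HSD17B7, the ketosteroid reductase of the pathway, had 578 (NS-si), 383 (Sp1-si), 486 (NS-si → CoCl2) and 248 (Sp1-si → CoCl2). It was lowest where both treatments met, with CoCl2 ratios of -0.25 ± 0.08 and -0.63 ± 0.08 and Sp1-si ratios of -0.59 and -0.97. Its other probe had the same signs in all 4 pairs. SQLE, the epoxidase that is a rate-limiting step, had log2 CoCl2 ratios of 0.22 for NS-si and -0.22 for Sp1-si cells. Its Sp1-si ratios were larger in size, -0.43 without and -0.88 with CoCl2.

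Not all of this branch was lower with Sp1-si. TM7SF2, a sterol reductase, was higher by 0.59 and 0.56, and both probes gave that sign. LSS, the cyclase that makes lanosterol, was higher by 0.49 and 0.30, while a pair of other LSS probes with scaled signals of 173 to 627 were higher by 1.31 without and by 1.38 and 1.39 with CoCl2. DHCR7, which makes cholesterol from its last precursor, was higher by 0.30 and 0.13. FDFT1 and NSDHL lay between -0.34 and 0.31 in all pairs.

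**Figure D3:**
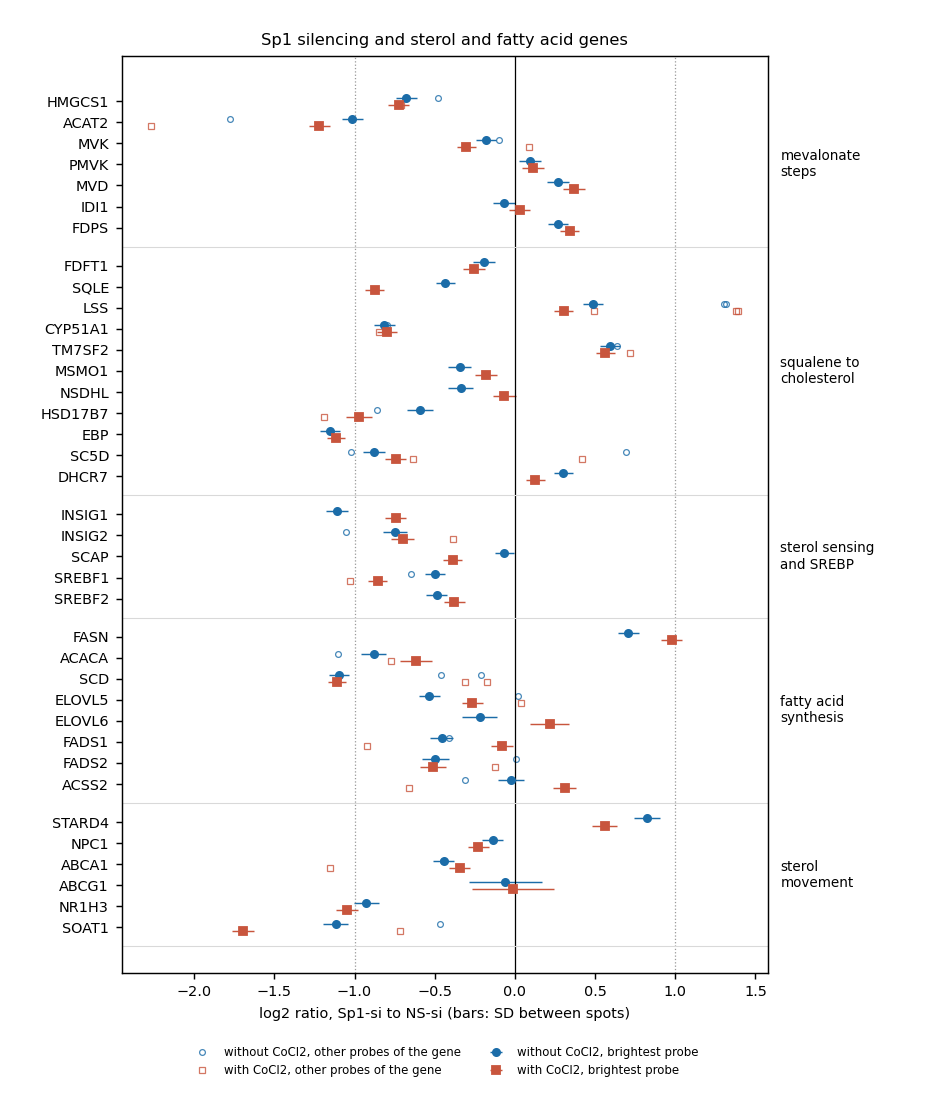
Log2 ratio of Sp1-si to NS-si cells for 37 sterol and fatty acid genes, grouped by role. Filled circles are cells without CoCl2 and filled squares cells with CoCl2 for the representative probe, with bars of 1 between-spot SD, open marks are other probes of the same gene, and dotted lines mark 2-fold. Most genes lie below 0, whereas 8 genes, STARD4, FASN, TM7SF2 and LSS among them, lie above 0 in both pairs.

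The sensing machinery held the gene with the highest CoCl2 ratio of the set. INSIG2, which retains SCAP and SREBPs in the endoplasmic reticulum, had scaled signals of 708 (NS-si), 422 (Sp1-si), 3176 (NS-si → CoCl2) and 1954 (Sp1-si → CoCl2). Both CoCl2 arrays were far above both untreated arrays, by 4.49-fold in NS-si (log2 2.17 ± 0.07) and 4.64-fold in Sp1-si cells (2.21 ± 0.07), and the other INSIG2 probe gave 1.68 and 2.35. The CoCl2 responses of INSIG2 in Sp1-si and NS-si cells differed by 0.05 ± 0.10 by the representative probe and by 0.67 by the other. Its level was lower with Sp1-si by 1.68-fold without and 1.63-fold with CoCl2 by the representative probe. By the other probe it was lower by 2.08-fold and 1.31-fold. INSIG1, its paralog and a classical SREBP target, had 5337, 2475, 7829 and 4673. CoCl2 went with log2 ratios of 0.55 ± 0.07 for NS-si and 0.92 ± 0.07 for Sp1-si cells, and Sp1-si with ratios of -1.11 and -0.74, so that the distance between the siRNAs was smaller with CoCl2. All 5 sensing genes were below 0 in both Sp1 pairs, with medians of -0.50 and -0.70. SREBF1 had CoCl2 ratios of 0.38 for NS-si and 0.02 for Sp1-si cells and Sp1-si ratios of -0.50 and -0.86, and its other probe gave -0.65 and -1.03. SREBF2 was lower with Sp1-si by -0.49 and -0.38. SCAP was at -0.07 without and -0.39 with CoCl2. Without scaling between arrays the median of all genes in the Sp1 pair with CoCl2 was 0.38. The signs of SREBF2 and SCAP in that pair therefore depend on the scaling.

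By their representative probes, genes of fatty acid synthesis lay above 0 with CoCl2, some of them barely. In NS-si cells ACACA stood at 0.04 ± 0.09 and ELOVL6 at 0.07 ± 0.12, and the other ACACA probe gave -0.53 ± 0.11. Without scaling between arrays the median of all genes in that pair was -0.22, larger in size than the group median given next, so these signs depend on the scaling. All 8 measured genes other than ACACB were above 0 in both CoCl2 pairs, with a median of 0.18 for NS-si and 0.50 for Sp1-si cells, although other probes of ACACA, ELOVL5, FADS1 and ACSS2 were below 0 in at least 1 of them. FASN, the multifunctional enzyme that builds palmitate, had scaled signals of 1202 (NS-si), 1962 (Sp1-si), 1864 (NS-si → CoCl2) and 3673 (Sp1-si → CoCl2). It was highest where both treatments met, with CoCl2 ratios of 0.63 ± 0.06 and 0.91 ± 0.07 and Sp1-si ratios of 0.71 and 0.98, and it had 1 probe. SCD, the desaturase that makes oleate from stearate, had 14650, 6847, 19610 and 9101 by its representative probe. That probe was lower with Sp1-si by 2.14-fold and 2.16-fold, but 2 other SCD probes gave -0.21 and -0.46 without and -0.17 and -0.31 with CoCl2, so the size of the SCD ratio depended on the probe. The 3 SCD probes were all above 0 with CoCl2, between 0.41 and 0.79 over both pairs. ACACA, the cytosolic acetyl-CoA carboxylase that feeds FASN, was opposite to it at -0.88 and -0.61 with Sp1-si, and its other probe gave -1.10 and -0.78. ELOVL5, ELOVL6, FADS1, FADS2 and ACSS2, which elongate and desaturate fatty acids or activate acetate, lay between -0.53 and -0.02 in the Sp1 pair without CoCl2 and between -0.51 and 0.31 in the pair with it. The 2 probes of FADS1 stood at -0.08 and -0.92 there, and those of ACSS2 at 0.31 and -0.66.

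Genes of sterol movement held the other 2 that were 2-fold higher with CoCl2. STARD4, a soluble carrier that moves cholesterol between membranes, had scaled signals of 264 (NS-si), 466 (Sp1-si), 572 (NS-si → CoCl2) and 843 (Sp1-si → CoCl2). The values stand in ascending order over these arrays, with CoCl2 ratios of 1.12 ± 0.07 and 0.86 ± 0.08 and Sp1-si ratios of 0.82 and 0.56. ABCA1, the LXR-driven exporter of cholesterol to lipid-poor apolipoprotein, had 1729, 1270, 3578 and 2816. Both CoCl2 arrays were above both untreated arrays, by 2.07-fold and 2.22-fold, and its other probe, with scaled signals of 25.4 to 76.8, gave log2 ratios of 1.15 and 0.45. NPC1, which lets cholesterol out of lysosomes, was higher with CoCl2 by 0.77 and 0.68. ABCG1, another LXR-driven exporter, lay between -0.06 and 0.06, with scaled signals of 16.4 to 17.3 and a between-spot SD of up to 0.26.

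NR1H3, which encodes LXRα, had scaled signals of 1683 (NS-si), 886 (Sp1-si), 1589 (NS-si → CoCl2) and 769.5 (Sp1-si → CoCl2). The values split by siRNA, with Sp1-si lower by 1.90-fold and 2.07-fold, and the CoCl2 ratios were -0.08 and -0.20. SOAT1, which esterifies cholesterol for storage, had 1881, 867, 2039 and 629.9. Sp1-si arrays were below NS-si arrays by 2.17-fold without and 3.24-fold with CoCl2, the latter the most negative ratio of the set at -1.69 ± 0.07, and the other SOAT1 probe gave -0.47 and -0.72. Its CoCl2 ratio was 0.12 ± 0.07 for NS-si and -0.46 ± 0.07 for Sp1-si cells, and neither reached 0.5 in size.

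**Figure D4:**
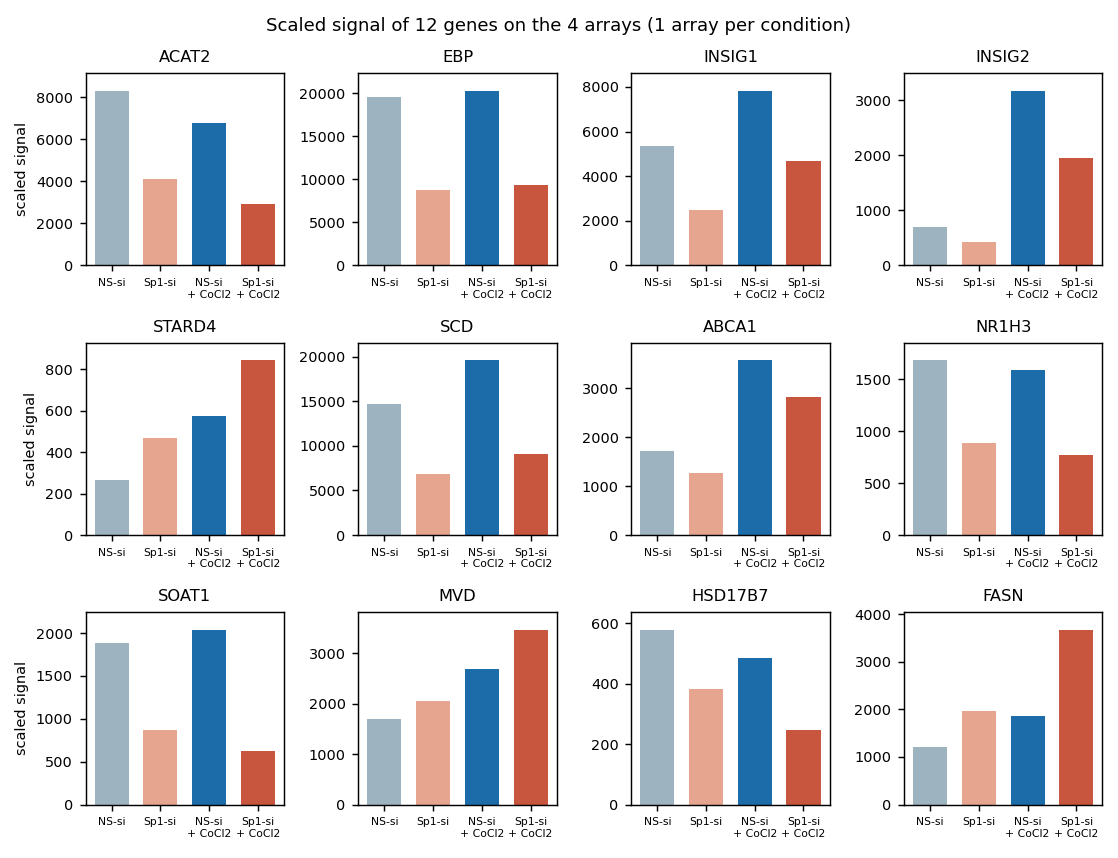
Scaled signal (75th percentile of each array set to 1000) of 12 genes on the 4 arrays, 1 array per condition, each panel with its own y axis from 0. Bars are NS-si, Sp1-si, NS-si → CoCl2 and Sp1-si → CoCl2 cells, without error bars because there is 1 array each. INSIG2 and ABCA1 are high on both CoCl2 arrays, ACAT2, EBP, SCD, NR1H3 and SOAT1 are low on both Sp1-si arrays, and STARD4, MVD and FASN are highest on the Sp1-si → CoCl2 array.

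Of the 18 genes with several probes, the probes lay on the same side of 0 for 14 in each CoCl2 pair, 15 in the Sp1 pair without and 14 in the Sp1 pair with CoCl2. The median range between probes of a gene was 0.17 to 0.39 on the log2 scale, wider than the median SD between spots. Without any scaling between arrays, the median log2 ratio of all genes shifted by -0.22 and 0.23 in the NS-si and Sp1-si CoCl2 pairs and by -0.07 and 0.38 in the Sp1 pairs without and with CoCl2. Relative to the median of all genes, the median of the set stayed between 0.16 and 0.24, 0.22 and 0.31, -0.43 and -0.33, and -0.31 and -0.18 in these pairs over the alternatives run. Alternatives that scale each array by 1 constant shift all genes alike and cannot change this distance. Scaling to the median, no scaling and the authors' table are of that kind, so only the other alternatives bear on it.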

How the data were processed

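Total RNA of OVSAYO cells was labelled with Cy3 and hybridised, 1 array per condition. The authors deposited the spot intensities written by Agilent Feature Extraction 10.5.1.1 (per the file headers), background-subtracted and detrended but not normalized between arrays. Their deposited value table equals this processed intensity times 1 constant per array (1.425, 1.52, 1.58 and 1.253 for NS-si, Sp1-si, NS-si → CoCl2 and Sp1-si → CoCl2, with column medians of 215.8, 219.7, 203.6 and 196.8). What set the constants is not given in the sources used here. Columns of per-sample values left unused numbered 0.

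Log2 processed signals of non-control spots, without outlier spots, were centred on the 75th percentile of the array and averaged per probe. A probe was well above background where at least 50% of its spots were, and ratios entered counts only where it was so on both arrays (on all 4 for the difference of ratios). RefSeq accessions gave 26222 of 41000 probes a symbol through the RefSeq table of GRCh38.p14, while the coordinates of the array design are on an older build and were not used. The other pathway genes are a list of 44. Genes named with values are those at a log2 ratio of 1 or more in any pair and the 2 with the largest ratio in each role group, with others by range, and HMGCS1, CYP51A1, SQLE and further single values were added after they were seen. Members and lists were chosen with earlier results of these data known. The code of the calling step was run on simulated data with planted changes well past the threshold and little noise. That run checks the code and does not measure how reliable the 2-fold calls are. Alternatives were quantile normalization, scaling to the median, no scaling, the authors' table, kept outlier spots, no background filter, the mean over probes, a 1.5-fold threshold, and a normexp correction (offset 50) of the median spot signals, since the files used here hold no mean spot signal. Python 3.11.15, numpy 2.4.6, pandas 2.3.3, matplotlib 3.10.9, R 4.3.3 and limma 3.58.1 were used. Other experiments of the study were not analysed here.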

Additional observations from a re-analysis of the deposited data

How the results depend on the processing

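With 1 array per condition nothing could be tested, and signal over background limits ABCG1 and ACACB most. No gene ratio past 2-fold changed sign under the alternatives run. Of 120 alternative values of gene ratios past 2-fold, 81 moved by less than the between-spot SD and 39 by more. The mean over probes took SCD to -0.59 and -0.53 and the Sp1-si ratio of SOAT1 without CoCl2 to -0.79. ABCA1 in NS-si cells, NR1H3 with CoCl2 and ACAT2 without CoCl2 stayed past 2-fold under 5 of 8 alternatives each, and STARD4 under 6. Some alternatives could not move a value. Spots of the set with an outlier flag numbered 0, so keeping outlier spots changed no ratio. The mean over probes leaves genes with 1 probe, such as NR1H3 and STARD4, as they were. All these counts include such values and so overstate the stability.

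In NS-si cells the median CoCl2 ratio was 0.18 after quantile normalization, 0.02 without scaling and 0.17 in the authors' table, and 1 gene without scaling and 7 at 1.5-fold were higher in place of 3. In Sp1-si cells it was 0.41 with median scaling, 0.53 without scaling and 0.22 with the mean over probes, with 4, 5 and 1 genes higher in place of 2, and 9 higher and 1 lower at 1.5-fold. Without CoCl2 the median Sp1-si ratio was -0.34 with the mean over probes, where 3 genes in place of 5 were lower, 12 were lower and 3 higher at 1.5-fold, and 1 was higher without the background filter (ACACB, not well above background in either condition). With CoCl2 it was -0.19 with median scaling and 0.10, on the other side of 0, without scaling, with 3 and 1 genes lower in place of 5 and 14 at 1.5-fold, and 1 gene was higher in place of 0 with median scaling, without scaling, in the authors' table, without the filter and at 1.5-fold. The median difference of the CoCl2 ratios was 0.12 with median scaling and 0.47 without scaling. No paired analysis was possible because each condition has 1 array.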

Other observations

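Another 44 genes of the same pathways, listed beside the set, were read in the same way, and 36 were well above background on all 4 arrays. Their median CoCl2 ratio was 0.07 for NS-si and 0.11 for Sp1-si cells and their median Sp1-si to NS-si ratio -0.04 without and 0.02 with CoCl2. In NS-si cells 0 were at least 2-fold higher with CoCl2, against 3.8% of all genes, and 1 lower, against 3.22%. In Sp1-si cells these were 0 against 3.45% and 2 against 3.72%. With Sp1-si, 3 were higher without CoCl2, against 5.87%, and 4 lower, against 5.81%, and with CoCl2 these were 3 against 7.06% and 5 against 7.72%.

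MYLIP, an LXR-driven ubiquitin ligase, had scaled signals of 1231 (NS-si), 1810 (Sp1-si), 524 (NS-si → CoCl2) and 798 (Sp1-si → CoCl2), with CoCl2 ratios of -1.23 and -1.18, opposite in sign to ABCA1, and of -1.21 and -1.88 by its other probe. The elongases of very long fatty acids stood on both sides of 0 with Sp1-si. ELOVL7 had 1197, 4349, 939.5 and 4717 (1.86 and 2.33, and 0.82 and 1.08 by its other probe), and ELOVL1 had 3094, 967, 2951 and 749 (-1.68 and -1.98). ME1, the malic enzyme that supplies NADPH, had Sp1-si ratios of -1.46 and -1.14, or -1.04 and -0.62 by its other probe, and the desaturase-like FADS3 had -1.24 and -1.30. ACSL5, an acyl-CoA synthetase, was at 1.20 and 1.34. LBR, a sterol reductase of the nuclear envelope, had 26950, 14400, 34960 and 12880, and its ratio was -0.90 without and -1.44 with CoCl2. HACD3, a dehydratase of fatty acid elongation, had 24460, 16830, 24600 and 8015, so that it was low on the Sp1-si → CoCl2 array, with CoCl2 ratios of 0.01 for NS-si and -1.07 for Sp1-si cells.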
